A study of Mus musculus with 15 samples.

Results

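Expression of 10 imprinted growth regulators was followed through the mouse aorta-gonad-mesonephros (AGM) region, the embryonic tissue in which the first definitive hematopoietic stem cells (HSCs) arise. The genes were H19, Igf2, Igf2r, Cdkn1c, Dlk1, Peg3, Mest, Grb10, Plagl1 and Ndn, and they were taken by name from a table of 28876 annotated genes, with each name matching 1 row. RNA-seq was performed on 15 libraries from C57BL/6 embryos, with no treatment named, in 5 groups of 3. At embryonic day 9.5 (E9.5) the region had been cut into a dorsal part (E9 AoD) and a ventral part (E9 AoV), each holding its side of the dorsal aorta with the tissue around it. At E10.5 it had been cut into the dorsal part (E10 AoD), the ventral part (E10 AoV) and the urogenital ridges (E10 UGR), with no separate urogenital sample at E9.5. Each library was a pool of tissue from 15 to 34 embryos, and 3 separate experiments were made.

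An imprinted gene is expressed mainly from the allele inherited from 1 parent, which is set by DNA methylation laid down in the germ line. Many such genes regulate fetal and placental growth, and paternally expressed genes tend to promote it whereas maternally expressed genes tend to restrain it. Igf2, Dlk1, Peg3, Mest, Plagl1 and Ndn are expressed from the paternal allele. H19, Igf2r, Cdkn1c and, in most tissues, Grb10 are expressed from the maternal allele. The libraries came from embryos of a single inbred strain and the table has 1 value per gene, so that the alleles could not be told apart.

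3 of the genes host microRNAs, whose mature sequences are shown because 1 of them lies in an exon of H19 and was counted together with it. The sequences are those of RefSeq, on build GRCm38.p6, and capitals mark the seed (bases 2 to 8).
mmu-miR-675-5p (in H19): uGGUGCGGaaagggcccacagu
mmu-miR-675-3p (in H19): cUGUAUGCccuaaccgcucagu
mmu-miR-483-5p (in Igf2): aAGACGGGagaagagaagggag
mmu-miR-483-3p (in Igf2): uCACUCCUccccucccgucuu
mmu-miR-335-5p (in Mest): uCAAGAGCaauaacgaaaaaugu
mmu-miR-335-3p (in Mest): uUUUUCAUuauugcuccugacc
No 2 of the 6 shared a seed, and each seed was carried by 1 of the 1738 mature mouse microRNAs of the RefSeq table. The libraries had been made from long RNA, so values for the microRNA genes were reads assigned to their precursors within a longer transcript. The miR-675 precursor, whose 84 bases all lie within an H19 exon, was assigned 5.08 to 14.5 RPM (reads-per-million, scaled to the reads assigned to genes). That was 0.162 to 0.194% of the H19 value in the same library, whereas the 84 bases are 3.54% of the H19 exon length. The value may therefore not be the full coverage of these bases, and the cause of the gap was not tested. Values for the precursors of miR-483 (0.123 to 0.450 RPM) and miR-335 (0.0593 to 0.333 RPM) were low, where 3 reads were worth 0.0617 to 0.0889 RPM.

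RefSeq promoters (250 bases before to 50 bases after a start site, GRCm38.p6) were matched for 8 of the 10 genes, with 14 start sites among them. H19 and Cdkn1c had no entry. A pair of Igf2 promoters is shown as 250 bases before the start site, with CG pairs, the positions at which DNA is methylated, in capitals, because a single gene spanned the range from few to many such pairs.
Igf2, chr7:142666817-142667066, minus strand: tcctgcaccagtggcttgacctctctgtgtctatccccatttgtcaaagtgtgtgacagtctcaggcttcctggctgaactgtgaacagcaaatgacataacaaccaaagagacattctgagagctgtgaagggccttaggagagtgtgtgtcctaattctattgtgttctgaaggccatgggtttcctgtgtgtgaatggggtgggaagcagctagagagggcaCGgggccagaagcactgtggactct
Igf2, chr7:142658805-142659054, minus strand: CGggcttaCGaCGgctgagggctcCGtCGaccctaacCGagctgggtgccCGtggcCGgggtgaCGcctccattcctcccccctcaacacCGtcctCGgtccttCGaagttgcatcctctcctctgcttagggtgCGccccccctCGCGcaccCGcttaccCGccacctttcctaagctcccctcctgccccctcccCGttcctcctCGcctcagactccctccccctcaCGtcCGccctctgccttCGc
In these stretches there was 1 CG pair in the former and there were 22 in the latter. Counted over all 300 bases, the 14 promoters held from 2 CG pairs (Igf2) to 45 (Grb10), with 34 in Igf2r and 26 in Plagl1, against a median of 7 over 32851 promoters. The promoter of Peg3 is shown with GGGGCCCC in capitals, a motif known to be bound by the zinc finger protein PLAGL1.
Peg3, chr7:6730420-6730669, minus strand: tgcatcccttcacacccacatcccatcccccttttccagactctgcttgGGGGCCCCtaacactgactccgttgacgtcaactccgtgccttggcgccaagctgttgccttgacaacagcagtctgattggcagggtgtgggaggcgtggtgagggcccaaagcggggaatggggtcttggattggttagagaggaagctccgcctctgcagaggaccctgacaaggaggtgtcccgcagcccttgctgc
GGGGCCCC reads the same on both strands and was found in 1.08% of all 32851 promoters. Among the 14 promoters it was found in that of Peg3 and in no other. AANATGGCG, a motif bound by YY1, was in 2.38% of all promoters and TATAAA in 13.6%, searched on both strands, and neither was in any of the 14.

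The libraries held an estimated 33700000 to 48600000 reads, as worked out from the steps between low values, of which 55.6 to 58.8% came out as whole reads, and replicate libraries had Pearson's r of 0.993 to 0.997 across genes on the log2 scale. Dissection left its mark on the marker genes of neighboring tissues. Summed neural tube markers (6 genes, none at the 3-read floor) reached 190 to 392 RPM in E9 AoD, against 6.05 to 79.5 RPM elsewhere, and summed skeletal muscle and dermomyotome markers (6 genes) 388 to 393 RPM, against 23.3 to 262 RPM. Summed liver and gut endoderm markers (7 genes) reached 474 to 710 RPM in E9 AoV and 7.96 to 38.9 RPM elsewhere, and the 5 sclerotome markers 466 to 650 RPM in E10 AoD and 41.4 to 224 RPM elsewhere. Endothelial markers (6 genes) were lowest in E9 AoD, at 281 to 376 RPM, against 438 to 635 RPM in the other groups. Because these are bulk tissues, fewer cells of a type and less RNA per cell could not be told apart, and p-values measure the spread between pools.

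All 10 genes were strongly expressed throughout. Together they made up 2.29 ± 0.0662% (SD, n = 3) of the reads in E10 AoD and 1.26 ± 0.193% in E9 AoD, the highest and the lowest share. The other 3 groups lay close together, at 1.92 ± 0.106% (E10 UGR), 1.94 ± 0.0698% (E9 AoV) and 1.96 ± 0.0652% (E10 AoV). H19 ranked from place 1 to 4 among the 28876 genes by mean RPM and was the highest of all in E10 AoD. Igf2 ranked from 4 to 12, Peg3 from 9 to 27, Grb10 from 24 to 27 and Mest from 36 to 56. Ndn, the lowest of the 10, still ranked from 976 to 1648.

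**Figure D1:**
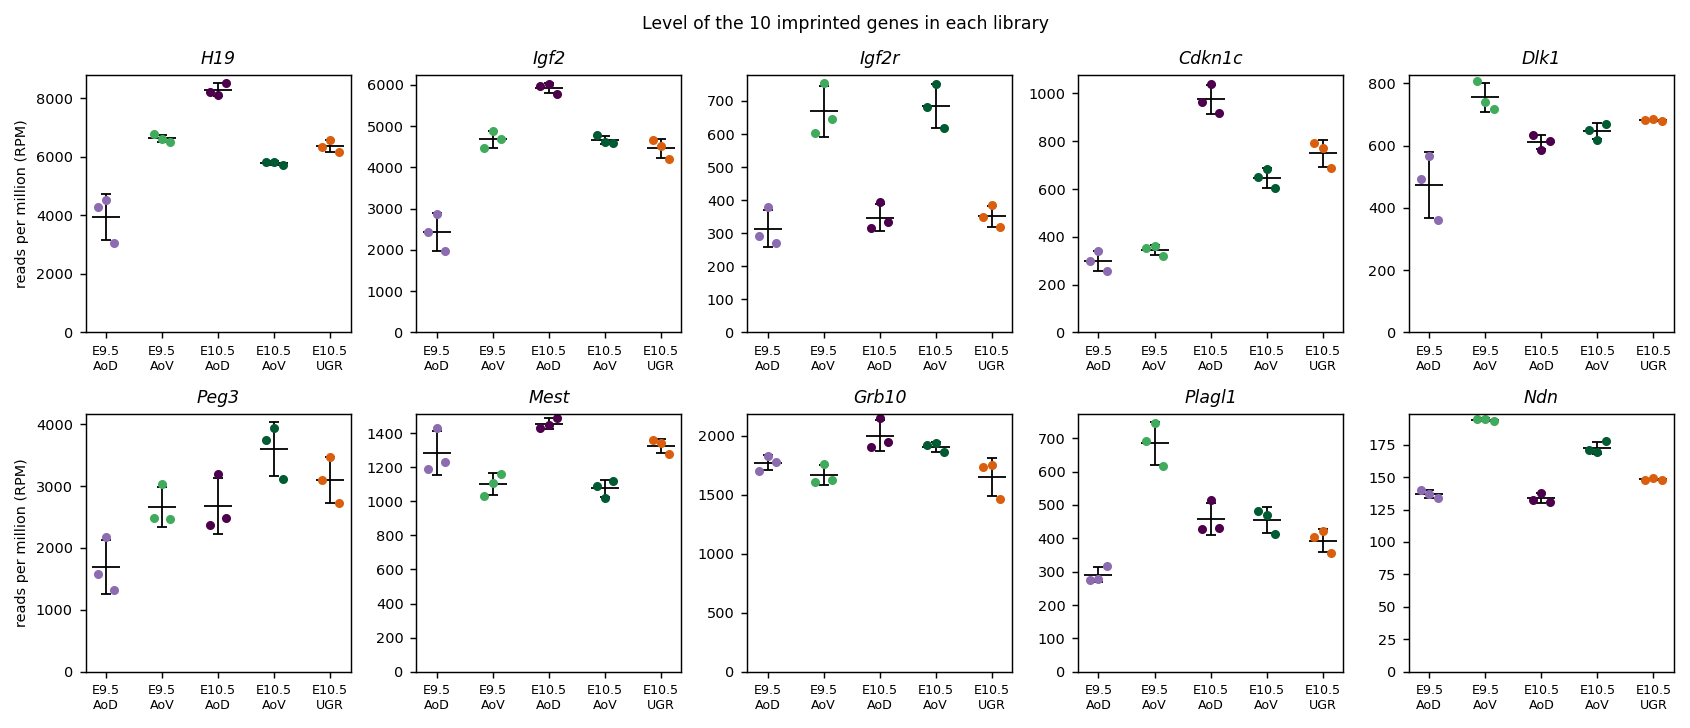
RPM of each of the 10 genes (y axis, from 0) in each library, by group (x axis), with colored points for the 3 libraries and a black bar for their mean ± SD. The E9 AoD libraries sit lowest for H19, Igf2, Dlk1 and Peg3, the Igf2r points of both AoV groups sit above those of the other 3 groups, and the E10 libraries sit above all E9 libraries for Cdkn1c.

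Levels of different genes were compared per kilobase of exon (union of annotated exons). H19, with 2.372 kb of exon, stood at 1665 to 3498 RPM per kb in the group means. Igf2 followed at 442 to 1078 RPM per kb, and Mest at 273 to 370 RPM per kb. Igf2r and Plagl1 were lowest, at 33.2 to 72.4 and 39.8 to 93.9 RPM per kb. By contrast with the unscaled values, Cdkn1c, a gene with 1.931 kb of exon, reached 505 RPM per kb in E10 AoD and there stood above Mest at 370, Grb10 at 218 and Peg3 at 202 RPM per kb.

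**Figure D2:**
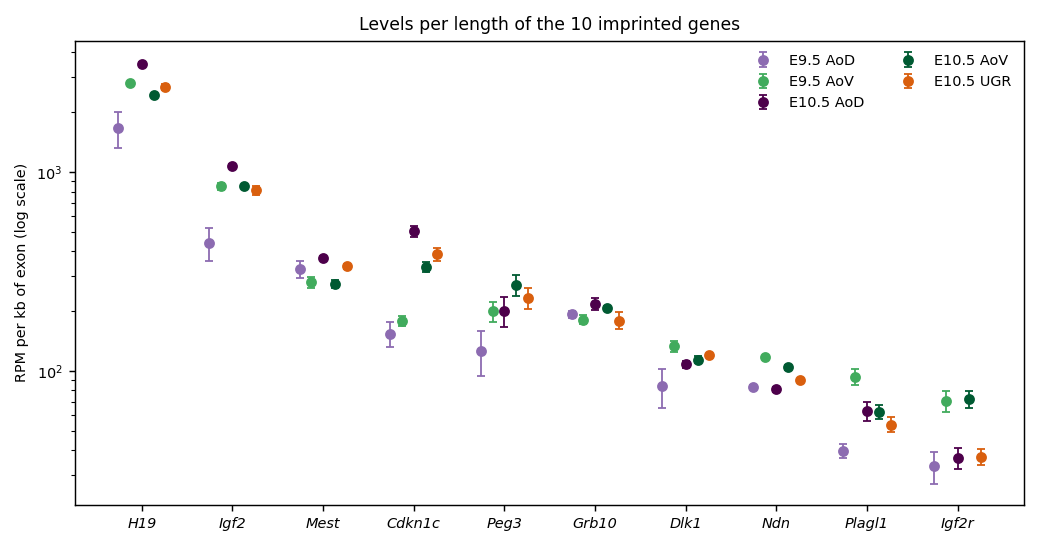
Mean RPM per kb of exon ± SD of the 3 libraries of each group (y axis, log scale) for the 10 genes (x axis), ordered by their mean over the groups. H19 is highest in every group and Igf2 is next in every group, while Igf2r and Plagl1 are lowest.

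Differences between groups were tested with limma on log2(RPM + 0.1) over 18553 genes that reached 0.5 RPM in at least 1 library. A gene is said to have risen or fallen where the adjusted p was below 0.05, and to be called where the log2 difference was also at least 1 in size. All 10 genes were tested. The genes are taken by role, beginning with the ligand and the noncoding RNA beside it.

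Igf2 (chr7:149836673-149852721, minus strand, build NCBIM37) encodes insulin-like growth factor 2, the main growth factor of the fetus in the mouse. Its level was 2430, 2880 and 1970 RPM in the 3 E9 AoD libraries and 4470, 4870 and 4690 RPM in E9 AoV. At E10.5 it was 5960, 6020 and 5780 RPM in E10 AoD, 4780, 4620 and 4600 RPM in E10 AoV and 4660, 4510 and 4200 RPM in E10 UGR. The E9 AoD libraries were thus below and the E10 AoD libraries above all others, and the other 3 groups overlapped. Dorsally Igf2 rose 2.47-fold from E9.5 to E10.5 (log2 difference 1.30, SE 0.0975, adjusted p = 4.71e-08). Ventrally its mean was 4677 RPM at E9.5 and 4667 RPM at E10.5 (log2 difference -0.0024, SE 0.0975, adjusted p = 0.987). The dorsal and ventral parts therefore changed places. Igf2 was 1.95-fold higher in AoV than in AoD at E9.5 (log2 0.96, adjusted p = 1.38e-06) and 1.27-fold lower at E10.5 (log2 -0.34, adjusted p = 0.0125). The E9.5 difference was called without E9 AoD replicate 2 (1.09). The difference between the stage changes was -1.31 on the log2 scale (SE 0.138, adjusted p = 6.48e-06).

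H19 (chr7:149761434-149764048, minus strand) is a spliced noncoding RNA. It lies 72.6 kb from Igf2 and is known to share enhancers with it. In E9 AoD it stood at 4290, 4520 and 3040 RPM, and in E9 AoV at 6770, 6620 and 6510 RPM. At E10.5 the values were 8220, 8130 and 8540 RPM in E10 AoD, 5810, 5830 and 5710 RPM in E10 AoV and 6340, 6590 and 6180 RPM in E10 UGR. The lowest and the highest group were those of Igf2, and only E9 AoV and E10 UGR overlapped. H19 rose 2.13-fold with stage in AoD (log2 1.09, SE 0.105, adjusted p = 5.88e-07), whereas in AoV it was 5783 RPM at E10.5 against 6633 RPM at E9.5 (log2 -0.20, adjusted p = 0.14). It was 1.70-fold higher ventrally at E9.5 (log2 0.77, adjusted p = 2.66e-05) and 1.43-fold lower ventrally at E10.5 (log2 -0.52, adjusted p = 0.00116). The stage changes of AoV and AoD differed by -1.29 on the log2 scale (SE 0.148, adjusted p = 1.47e-05). E9 AoD replicate 3 held the least H19 of any library. Without it the dorsal rise of H19 was 0.91 on the log2 scale (adjusted p = 1.36e-08), under the fold threshold, and that of Igf2 was 1.16.

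In the same library the neural tube markers summed to 392 RPM, against 241 and 190 RPM in E9 AoD replicates 1 and 2. Of the 10 genes, 7 were lowest in replicate 3 among the E9 AoD libraries and 8 were highest in replicate 2. This was not particular to E9 AoD. Replicate 3 was lowest for 10 genes in E10 UGR, 7 in E10 AoV and 6 in E9 AoV, but for 3 in E10 AoD. Replicate 2 was highest for 7 genes in each of E9 AoV, E10 AoD and E10 UGR, and for 5 in E10 AoV. The same counts were not made over all tested genes, so whether they are particular to the 10 genes was not tested. The part of neural, muscle or endothelial tissue in the low E9 AoD values was not tested. Replicate 2 held the highest value for Igf2r and for Peg3 in all 5 groups.

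Igf2r (chr17:12875272-12962530, minus strand) encodes the cation-independent mannose 6-phosphate receptor, which takes up Igf2 and delivers it to lysosomes, and thereby limits growth. Its levels were 293, 378 and 270 RPM in E9 AoD, against 604, 755 and 646 RPM in E9 AoV. At E10.5 the libraries held 315, 394 and 333 RPM (E10 AoD), 682, 751 and 618 RPM (E10 AoV) and 350, 384 and 319 RPM (E10 UGR). Every AoV library was above every AoD and UGR library, and within each of these 2 sets the groups overlapped. Igf2r was 2.14-fold higher in AoV than in AoD at E9.5 (log2 1.10, SE 0.124, adjusted p = 4.16e-06) and 1.97-fold higher at E10.5 (log2 0.98, SE 0.124, adjusted p = 1.70e-05). The E10 AoV level was also 1.95-fold that of E10 UGR (log2 0.96, adjusted p = 2.93e-05). These values lie at the fold threshold. Without E9 AoD replicate 3 the E9.5 difference was 0.999 and not called, and the E10.5 difference against AoD was called without E10 AoD replicate 2 (1.07) or E10 AoV replicate 3 (1.05). That against UGR was called without E10 AoV replicate 3 or E10 UGR replicate 2 (1.03 in each). No change with stage passed, at log2 0.16 (adjusted p = 0.30) in AoD and 0.03 (adjusted p = 0.847) in AoV, but the dorsal one did without E9 AoD replicate 2 (0.30, adjusted p = 0.0399). The dorsal change also passed with replicate number added to the limma fit (adjusted p = 0.0344). Liver and gut endoderm markers, which were high in E9 AoV, summed to no more than 15.0 RPM in E10 AoV and no more than 29.6 RPM in E10 AoD. Urogenital ridge markers (7 genes) summed to 537 to 559 RPM in E10 AoV and to 647 to 713 RPM in E10 UGR. The part of these tissues in the Igf2r differences was not tested.

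Grb10 (chr11:11830511-11938686, minus strand) encodes an adaptor that binds the insulin and IGF1 receptors and dampens their signal. It was the most even of the 10, with an SD over the 15 libraries of 0.136 on the log2 scale, at percentile 24.3 of the tested genes. Values ran from 1460 RPM in an E10 UGR library to 2150 RPM in an E10 AoD library. It rose with stage by 0.17 in AoD (adjusted p = 0.0415) and by 0.20 in AoV (adjusted p = 0.0294) on the log2 scale, and was higher in E10 AoD (2000 ± 132 RPM) and E10 AoV (1907 ± 41.6 RPM) than in E10 UGR (1647 ± 162 RPM), by 0.28 (adjusted p = 0.00413) and 0.22 (adjusted p = 0.0287). AoV and AoD overlapped at both stages. The passes of Grb10 were near the threshold. Leaving out E9 AoV replicate 1 or 3 or E10 AoV replicate 1 or 2 raised the adjusted p of the ventral rise to between 0.0747 and 0.0928. That of the dorsal rise went to between 0.0507 and 0.172 without E9 AoD replicate 1 or 3, E9 AoV replicate 3, E10 AoD replicate 2 or 3, or E10 AoV replicate 1 or 2. The difference from UGR in AoV lost its pass without E10 AoV replicate 1 (adjusted p = 0.077) or 2 (0.0867) or E10 UGR replicate 3 (0.15).

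Cdkn1c (chr7:150644255-150646955, minus strand) encodes p57Kip2, an inhibitor of cyclin-dependent kinases that promotes exit from the cell cycle. It lies 792 kb from Igf2. It was at 297, 340 and 256 RPM in E9 AoD and at 354, 362 and 321 RPM in E9 AoV. The E10 AoD libraries held 965, 1040 and 920 RPM, the E10 AoV libraries 651, 684 and 603 RPM and the E10 UGR libraries 793, 771 and 686 RPM. All E10 libraries were above all E9 libraries. Cdkn1c showed the largest stage change of the 10 genes in both parts, 3.29-fold in AoD (log2 1.72, SE 0.0905, adjusted p = 1.89e-09) and 1.87-fold in AoV (log2 0.90, SE 0.0905, adjusted p = 1.37e-06). The rise was smaller in AoV by 0.82 on the log2 scale (SE 0.128, adjusted p = 0.00022). At E10.5 it was 1.51-fold lower in AoV than in AoD (log2 -0.59, adjusted p = 0.000101). At E9.5 the parts differed by 0.22 in the other direction (adjusted p = 0.055), which passed without E9 AoD replicate 2 (0.32, adjusted p = 0.00628) or E9 AoV replicate 3 (0.28, adjusted p = 0.0404). This E9.5 difference also passed with replicate number added to the limma fit (adjusted p = 0.00175).

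Dlk1 (chr12:110691033-110701546, plus strand) encodes a transmembrane protein of the Notch ligand family that lacks the domain for binding Notch in the usual manner. Values were 494, 568 and 360 RPM in E9 AoD and 806, 741 and 718 RPM in E9 AoV. At E10.5 the 3 groups lay close together, at 633, 587 and 615 RPM in AoD, 650, 618 and 671 RPM in AoV and 681, 684 and 679 RPM in UGR. E9 AoD was lowest and E9 AoV highest, with no overlap with the rest. Dlk1 was 1.62-fold higher in AoV than in AoD at E9.5 (log2 0.70, SE 0.113, adjusted p = 0.000135), and at E10.5 the difference was 0.08 (adjusted p = 0.631). It rose by 0.39 with stage in AoD (adjusted p = 0.00797), whereas in AoV the difference was -0.22 (adjusted p = 0.121). These changes differed from each other by -0.62 (SE 0.159, adjusted p = 0.00927). Without E9 AoD replicate 3, which held the least Dlk1, the dorsal rise was 0.21 (adjusted p = 0.0148).

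Mest (chr6:30673547-30698457, plus strand) encodes a protein with an alpha/beta hydrolase fold. It passed as lower in AoV than in AoD at both stages, as none of the other 9 genes did. The E9 AoD libraries held 1190, 1430 and 1230 RPM and the E9 AoV libraries 1030, 1110 and 1160 RPM. At E10.5 the levels were 1430, 1450 and 1490 RPM in AoD, 1090, 1020 and 1120 RPM in AoV and 1360, 1340 and 1280 RPM in UGR. AoV was below AoD without overlap at both stages, by 0.22 at E9.5 (adjusted p = 0.0124) and by 0.44 at E10.5 (SE 0.0654, adjusted p = 8.52e-05) on the log2 scale, and below UGR by 0.30 (adjusted p = 0.00266). The E9.5 pass was lost without E9 AoD replicate 2 (log2 -0.14, adjusted p = 0.0645) or E9 AoV replicate 1 (-0.17, adjusted p = 0.0561). Copg2, on the opposite strand, shares 904 exon bases with Mest (23.0% of its exons) and read 919 to 1310 RPM, or 86.2 to 103.9% of Mest in the same library. Because neither the strand of the libraries nor that of the counting was stated, reads from these 904 bases cannot be given to either gene.

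Peg3 (chr7:6656603-6683132, minus strand) encodes a large zinc finger protein. Its values were 1580, 2170 and 1320 RPM in E9 AoD and 2490, 3030 and 2470 RPM in E9 AoV. They were 2370, 3200 and 2480 RPM in E10 AoD, 3740, 3940 and 3110 RPM in E10 AoV and 3100, 3470 and 2720 RPM in E10 UGR. The E9 AoD libraries were lowest, and all other groups overlapped with at least 1 neighbor. Peg3 rose with stage by 0.69 in AoD (SE 0.164, adjusted p = 0.0024) and by 0.43 in AoV (SE 0.164, adjusted p = 0.0431) on the log2 scale, and was 1.60-fold higher in AoV than in AoD at E9.5 (log2 0.68, adjusted p = 0.00321). At E10.5 that difference was 0.43 (adjusted p = 0.0557), and E10 AoV and E10 AoD overlapped. It passed without E9 AoD replicate 2 (adjusted p = 0.0207) or 3 (0.0325), E10 AoD replicate 2 (0.0207) or E10 AoV replicate 3 (0.0386). With replicate number added to the limma fit it passed too (adjusted p = 0.000907). The ventral rise lost its pass without E9 AoV replicate 1 (adjusted p = 0.114) or 3 (0.128), E10 AoV replicate 1 (0.114) or 2 (0.143), or E10 UGR replicate 1 (0.0547).

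Plagl1 (chr10:12810497-12851500, plus strand), also named Zac1, encodes a zinc finger transcription factor that restrains proliferation and regulates other imprinted genes. It was at 276, 279 and 316 RPM in E9 AoD and at 691, 746 and 617 RPM in E9 AoV. At E10.5 it was at 428, 515 and 431 RPM in AoD, 483, 471 and 412 RPM in AoV and 403, 421 and 355 RPM in UGR. The E9.5 groups were the lowest and the highest, and the 3 E10.5 groups lay between them. Plagl1 was 2.36-fold higher in AoV than in AoD at E9.5 (log2 1.24, SE 0.0934, adjusted p = 7.00e-08), and at E10.5 the means were 455 and 458 RPM (log2 -0.0065, adjusted p = 0.968). It rose with stage in AoD by 0.65 (adjusted p = 2.94e-05) and fell in AoV by 0.59 (adjusted p = 0.000123) on the log2 scale, the 1 gene of the 10 to pass in opposite directions. The difference between these changes was -1.24 (SE 0.132, adjusted p = 7.00e-06). Of its 6820 annotated 50-base exon windows, 4.94% occurred elsewhere in the genome, against 0.296% for Peg3 and none for the other 8 genes, so that some Plagl1 reads had more than 1 possible source.

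Ndn (chr7:69493163-69494814, plus strand), a gene with 1 exon that encodes necdin, a MAGE family protein of postmitotic neurons and other cells, was highest in AoV. Its values were 140, 137 and 134 RPM in E9 AoD and 195, 195 and 193 RPM in E9 AoV. They were 132, 138 and 131 RPM in E10 AoD, 171, 169 and 178 RPM in E10 AoV and 148, 149 and 148 RPM in E10 UGR. Except for both AoD groups, no groups overlapped. Small differences therefore passed, with Ndn higher in AoV than in AoD by 0.50 at E9.5 (SE 0.0348, adjusted p = 2.94e-08) and by 0.37 at E10.5 (adjusted p = 8.15e-07) on the log2 scale. It fell by 0.17 with stage in AoV (adjusted p = 0.00101).

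From E9 AoD to E10 AoD 8 of 10 rose and none fell, against 30.0% of all tested genes that rose and 27.9% that fell. 3 of the 8 (Cdkn1c, Igf2 and H19) were called, against 8.60% of all genes called higher, and 7 of 10 had libraries without overlap, against 60.7%. The median log2 difference of the 10 was 0.52, against -0.0019 for all tested genes. The risers were 5 of the 6 paternally expressed genes (Igf2, Dlk1, Peg3, Mest and Plagl1) and 3 of the 4 maternally expressed ones (H19, Cdkn1c and Grb10). Without E9 AoD replicate 3, 6 of the 10 passed and 2 were called, Mest (adjusted p = 0.0825) and Grb10 (0.0714) being lost. The pass of Mest was also lost without E9 AoD replicate 1 (0.109) or E10 AoD replicate 3 (0.0698). Macrophage markers (6 genes, none at the 3-read floor) summed to 2.37 to 10.4 RPM in the E9 libraries and to 33.0 to 66.2 RPM in the E10 libraries, which were also the higher for Cdkn1c. From E9 AoD to E10 AoD, notochord markers (4 genes, with Noto at the floor in E10 AoD) went from 61.5–70.4 to 144–168 RPM and erythroid markers (6 genes) from 2957–6652 to 6977–9359 RPM. Smooth muscle markers (5 genes) went from 63.5–124 to 545–706 RPM, and neural crest and sympathoadrenal markers (6 genes) from 57.8–59.3 to 301–360 RPM. Markers of neural tube, of skeletal muscle and dermomyotome, and of germ cells went the other way. The part of these cells in the dorsal differences was not tested.

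From E9 AoV to E10 AoV, by contrast, 5 of 10 passed, against 46.0% of all tested genes. Cdkn1c, Peg3 and Grb10 rose and Plagl1 and Ndn fell. None of the 10 was called by limma, against 11.0% of all genes. An unadjusted p below 0.05 was found for 5, where the share of all genes is at least the 46.0% that passed. The median log2 difference was -0.016, against -0.0016 for all genes, and 7 of 10 had libraries without overlap, against 55.0%. The count of 5 fell to 3 without E9 AoV replicate 1 or 3 or E10 AoV replicate 1 or 2, and rose to 7 without E9 AoD replicate 3. H19 (log2 -0.20, adjusted p = 0.00348) and Dlk1 (log2 -0.22, adjusted p = 0.00572) then passed as lower at E10.5. They also passed when E9 AoV and E10 AoV were fitted without the other groups (adjusted p = 0.0121 and 0.0111). Dlk1 passed without E9 AoD replicate 2 too (0.0485). On leaving out each library in turn, 7126 to 8719 of all tested genes passed, against 8537 with all libraries.

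The test of the difference between these stage changes passed for 5 of 10 genes (H19, Igf2, Plagl1, Cdkn1c and Dlk1), against 28.1% of all tested genes, and in all 5 the ventral change was the lower, against 16.3% of all genes. 3 of them, H19, Igf2 and Plagl1, were called, against 6.89% of all genes called lower. For the other 5 genes the log2 differences ran from -0.25 (Peg3, SE 0.232) to 0.02 (Grb10, SE 0.0975). Mest passed without E9 AoD replicate 2 (-0.30, adjusted p = 0.0104), and Ndn without E9 AoD replicate 1 (-0.15, adjusted p = 0.0412) or E10 AoV replicate 3 (-0.16, adjusted p = 0.0373).

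At E9.5 7 of 10 genes were higher in the ventral than in the dorsal part, against 27.5% of all tested genes, and 1, Mest, was lower, against 20.1%. Igf2r and Plagl1 were called, against 8.32% called higher, and 8 of 10 had libraries without overlap, against 51.3%. The median of the 10 was 0.69, against 0.018 for all genes. The direction of the all-gene shares depended on scaling. Of all genes that passed, 5108 were higher and 3738 lower in this comparison, against 4069 higher and 5213 lower after quantile normalization. Of those called, 1544 were higher and 643 lower, against 1200 higher and 820 lower. At E10.5 the same comparison passed for 6 of 10, against 35.5% of all genes, with Igf2r and Ndn higher in AoV and H19, Igf2, Cdkn1c and Mest lower. None was called by limma, against 10.1%, and 6 of 10 had libraries without overlap, against 49.5%. An unadjusted p below 0.05 was found for 7 of 10, where the share of all genes is at least the 35.5% that passed. The median was -0.037, against 0.017 for all genes. The comparisons of a stage or a part share libraries with each other, so that they are not independent.

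**Figure D3:**
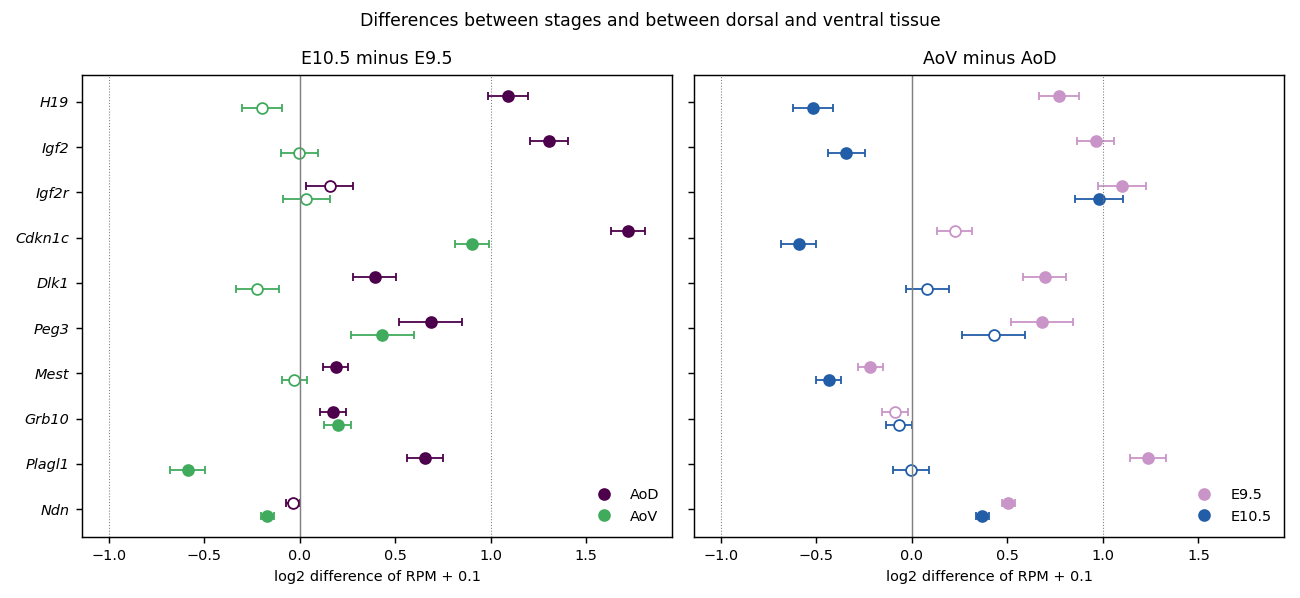
Log2 differences of RPM + 0.1 (x axis) with their SE from limma for the 10 genes (y axis), on the left E10.5 minus E9.5 in AoD and in AoV, and on the right AoV minus AoD at E9.5 and at E10.5. Filled points passed an adjusted p of 0.05, open points did not, and dotted lines mark a log2 difference of 1 in either direction; the dorsal stage changes reach 1.72 (Cdkn1c), and H19, Igf2 and Cdkn1c are negative in the E10.5 comparison of AoV with AoD.

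Against E10 UGR, 4 of 10 genes passed in E10 AoV, against 29.1% of all tested genes. Igf2r, Grb10 and Ndn were higher and Mest was lower in AoV, and 7 of 10 had libraries without overlap, against 48.6%. In E10 AoD 5 of 10 passed, against 39.2% of all genes, with H19 (log2 0.38, adjusted p = 0.0092), Igf2 (0.41, adjusted p = 0.00346), Cdkn1c (0.38, adjusted p = 0.00357) and Grb10 higher and Ndn lower (-0.15, adjusted p = 0.00289). There 8 of 10 had libraries without overlap, against 50.9%. None was called by limma in either comparison, against 7.57% and 11.3%. In each, 6 genes had an unadjusted p below 0.05, where the shares of all genes are at least the 29.1% and 39.2% that passed. Of all genes that passed between E10 AoD and E10 UGR, 2687 were higher and 4595 lower in AoD, and 3531 higher and 3493 lower with scaling by the trimmed mean of M values (TMM). When the 5 groups were put in order for each gene, 15 of the 40 pairs of neighbors in the order differed at an adjusted p below 0.05, and 21 had libraries without overlap. The order came from the same values, and the share over all tested genes was not worked out for such pairs. These counts therefore only describe the order and do not set the 10 genes apart from others. Those of Grb10 passed in none of 4 pairs and those of Ndn in 3 of 4.

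Without E9 AoD replicate 3, H19 (-0.14, adjusted p = 0.0386) and Cdkn1c (-0.21, adjusted p = 0.0426) also passed for E10 AoV against E10 UGR, and Dlk1 (-0.16, adjusted p = 0.0434) for E10 AoD against E10 UGR. Cdkn1c passed without E9 AoD replicate 2 too (0.047).

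H19 and Igf2 were set against each other within each library, and so were Igf2 and Igf2r. The ratio of H19 to Igf2 in RPM was highest in E9 AoD, at 1.63 ± 0.121 (SD, n = 3), and lowest in E10 AoV, at 1.24 ± 0.0233. It was 1.43 ± 0.0613 in E10 UGR, 1.42 ± 0.0826 in E9 AoV and 1.40 ± 0.0666 in E10 AoD. Over the 12 aorta libraries its log2 was lower at E10.5 than at E9.5 by 0.20 (exact permutation test over 924 regroupings, two-sided, p = 0.013, adjusted over 4 tests p = 0.026). Between AoV and AoD the difference was -0.19 (exact p = 0.039, adjusted p = 0.0519). The stage result moved past the threshold on leaving out any 1 of 8 of the 12 libraries, with adjusted p from 0.0519 to 0.0823.

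The ratio of Igf2 to Igf2r, ligand to clearing receptor, was 7.74 ± 0.509 in E9 AoD and 7.04 ± 0.513 in E9 AoV. At E10.5 it was 17.2 ± 1.83 in AoD, 6.87 ± 0.657 in AoV and 12.7 ± 0.867 in UGR. The 3 E10 AoD libraries (15.3 to 18.9) were above every other, those of E10 UGR were next, and the 2 AoV groups overlapped. With both stages pooled, the log2 ratio was lower in AoV than in AoD by 0.73 (exact permutation test, p = 0.00649, adjusted p = 0.026). With both parts pooled, E10.5 exceeded E9.5 by 0.56 (exact p = 0.162, adjusted p = 0.162), the E10.5 libraries being split between AoD and AoV. At E9.5 the mean log2 ratio was 2.95 in AoD and 2.812 in AoV, and their libraries overlapped. At E10.5 it was 4.098 in AoD and 2.775 in AoV, so the position difference lay mostly at that stage. Leaving out any 1 of the 6 AoV libraries raised the adjusted p of the position difference to between 0.0548 and 0.0823.

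**Figure D4:**
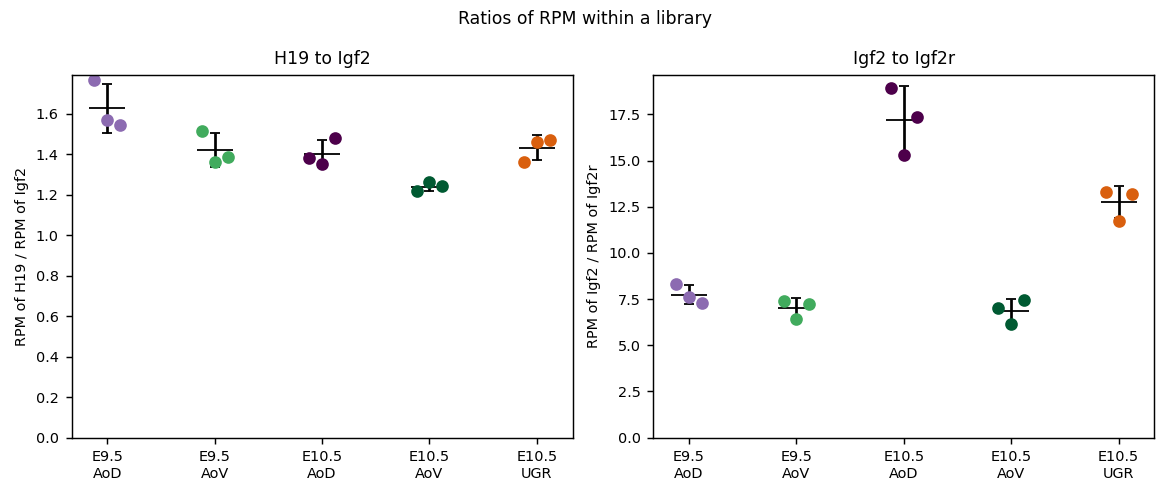
Ratio of RPM of H19 to Igf2 (left) and of Igf2 to Igf2r (right) in each library (points) by group, with the mean ± SD of 3 libraries in black and both y axes from 0. The H19 to Igf2 means fall between 1.24 and 1.63, whereas the Igf2 to Igf2r mean of E10 AoD, 17.2, stands above the 6.87 of E10 AoV.

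For each gene the tested genes with the most similar pattern were found, by the root mean square difference of centered log2 values over the 15 libraries. The gene most like H19 was miR-675 (0.0718), whose precursor lies within it, then H6pd (0.113), and Igf2 was in place 4 of 18552 (0.137). For Igf2 they were Camk2d (0.0846) and Tgfbr2 (0.109), with H19 in place 5. No other member was within the nearest 200 genes of any of the 10, but some came soon after. Ndn was in place 227 for Plagl1 and 229 for Igf2r. Plagl1 was in place 274 for Igf2r, and Dlk1 in place 281 for Plagl1 and 337 for H19. Places depended on the gene started from, with Plagl1 in place 8314 for Ndn. Igf2r was nearest to Ece1 (0.134) and Tubb4 (0.178), Cdkn1c to Nacc2 (0.126) and Tcp11l2 (0.161), and Dlk1 to Plvap (0.102) and Ctsd (0.113). Peg3 was nearest to Gpc6 (0.103) and Nid1 (0.132), Plagl1 to Vat1 (0.145) and Ugdh (0.158), Grb10 to Rap2b (0.0676) and Pip4k2b (0.0687), and Ndn to Nsmaf (0.0631) and Glud1 (0.0669). Mest was nearest to Gpr125 (0.0709) and to Copg2 (0.0751), the gene with which it shares exon bases. Igf2as, on the opposite strand of Igf2, read 38.8 to 78.6 RPM, or 1.08 to 2.12% of Igf2 in the same library. It shares 98 exon bases with Igf2 (1.78% of the Igf2 exons), and reads from these bases cannot be given to either gene. Airn, a noncoding RNA known to silence the paternal Igf2r allele, shares no exon bases with Igf2r. It read 4.25 to 8.95 RPM, or 0.995 to 1.99% of Igf2r.

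Other imprinted genes were examined as lists. Of 15 other paternally expressed genes tested, from a list of 18, 5 rose and 5 fell from E9 AoD to E10 AoD, with a median of -0.049, against 30.0% and 27.9% of all tested genes. From E9 AoV to E10 AoV 4 rose and 7 fell, with a median of -0.010, against 23.6% and 22.4%. Dio3, which inactivates thyroid hormone, fell in both parts, from 7.74 ± 0.341 to 1.70 ± 0.15 RPM in AoV (log2 -2.12, adjusted p = 1.24e-07) and from 2.57 ± 0.619 to 0.826 ± 0.112 RPM in AoD (log2 -1.50, adjusted p = 2.6e-06). Usp29, the neighbor of Peg3, rose in AoD from 10.4 ± 2.65 to 23.7 ± 2.07 RPM (log2 1.21, adjusted p = 5.15e-06). Magel2, the neighbor of Ndn, fell in AoV from 14.1 ± 0.379 to 6.81 ± 1.22 RPM (log2 -1.06, adjusted p = 2.39e-06). In E9 AoV against E9 AoD 7 were higher and 3 lower, with a median of 0.23, against 27.5% and 20.1%.

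Of 8 other maternally expressed genes tested, from a list of 10, 4 rose and 1 fell with stage in AoD (median 0.28), 2 rose and 3 fell in AoV (median -0.11), and 5 were higher and none lower in E9 AoV than in E9 AoD (median 0.89). The shares over all tested genes are those given for the paternal list. Phlda2, which restrains placental growth and lies in the same imprinted cluster as Cdkn1c, followed another course from Cdkn1c, at 15.5 ± 1.02 RPM in E9 AoV, 2.38 ± 0.284 in E10 AoV and 0.413 to 0.962 RPM in the means of the other groups. It fell by 2.65 with stage in AoV (adjusted p = 1.69e-07) and was higher in AoV than in AoD by 3.95 at E9.5 (adjusted p = 3.32e-09) and 2.27 at E10.5 (adjusted p = 8.90e-07). The endoderm markers were high in the same E9 AoV libraries, and their part was not tested. Asb4 rose in AoD from 133 ± 19.8 to 323 ± 12.2 RPM (log2 1.29, adjusted p = 2.11e-08), and Zim1, beside Peg3, from 31.6 ± 9.56 to 92.1 ± 8.82 RPM (log2 1.58, adjusted p = 8.88e-07).

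Among 8 genes of IGF signaling and Igf2 mRNA binding, 2 rose and 2 fell with stage in AoD and 1 rose and 2 fell in AoV, with medians of 0.064 and -0.012, against all-gene shares of 30.0% and 27.9% in AoD and 23.6% and 22.4% in AoV. The riser in both was Igf1, the other IGF ligand, from 14.3 ± 2.63 to 39.5 ± 8.58 RPM dorsally and from 27.4 ± 3.26 to 97.6 ± 14.1 RPM ventrally, with 83.4 ± 16.1 RPM in E10 UGR. Unlike Igf2, Igf1 was higher in AoV than in AoD at E10.5, by 1.31 on the log2 scale (adjusted p = 2.44e-05). Irs1, an adaptor of the insulin and IGF1 receptors, was 1.01 lower in AoV there (29.6 ± 1.99 against 59.9 ± 5.25 RPM, adjusted p = 2.91e-06). Of 12 regulators of imprinted methylation tested, from a list of 14, 3 rose and 6 fell with stage in AoD (median -0.13) and 2 rose and 4 fell in AoV (median 0.072), beside the same all-gene shares. Dppa3, a protein of germ cells and early embryos, was called between E10 AoV and each other group it was compared with, at 4.65 ± 0.558 RPM in E10 AoV against 0.126 to 0.810 RPM in the means of the others. The germ cell markers, which include Dppa3, summed to 27.1 to 30.8 RPM in E10 AoV and to 2.13 to 7.77 RPM in the other groups.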

How the data were processed

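The authors pooled tissue, extracted total RNA on columns with DNase I, prepared TruSeq libraries and sequenced 50-base single-end reads. Per the paper's methods and the submitters' processing notes, they aligned reads to NCBIM37/mm9 with TopHat and Bowtie 0.12.3 in GeneProf, and split ambiguously mapped reads among Ensembl genes in proportion to uniquely mapped ones. The authors deposited RPM (reads-per-million of assigned reads, 3 significant digits, no length scaling) for 15 libraries. Another 12 deposited columns hold the authors' DESeq log2 fold changes and adjusted p-values and were not used. RPM steps gave whole reads for only 55.6 to 58.8% of low values, so counts were not rebuilt.

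Genes reaching 0.5 RPM in at least 1 library (18553) were tested on log2(RPM + 0.1) with limma 3.58.1 (R 4.3.3; a mean for each of 5 groups, all libraries, intensity trend, Benjamini-Hochberg adjustment over all tested genes). Fold changes are on this scale. The test was also run on simulated counts with a single spread for all genes and groups and no effect of replicate number. That run does not bear on the uneven spread between libraries here. Ratios were compared by exact permutation. Positions are those of GENCODE for NCBIM37, promoters and microRNAs those of RefSeq for GRCm38.p6. The members and lists were chosen with earlier results of these data known. Members were all named, and from each list up to 2 called rises and 2 called falls per comparison could be named where 1 group reached 1 RPM. Groups and replicate numbers came from the sample labels. Alternatives were other pseudocounts, filters, scalings, thresholds and models, a replicate block, and leaving out each library.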

Additional observations from a re-analysis of the deposited data

Results flagged for a closer look

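For 5 genes the dorsal and the ventral parts differed in their change with stage, by the interaction term of the limma fit. The ventral change minus the dorsal change was -1.29 for H19 (adjusted p = 1.47e-05), -1.31 for Igf2 (adjusted p = 6.48e-06), -0.82 for Cdkn1c (adjusted p = 0.00022), -0.62 for Dlk1 (adjusted p = 0.00927) and -1.24 for Plagl1 (adjusted p = 7.00e-06), all on the log2 scale. Without E9 AoD replicate 3, which held the least H19, Igf2, Cdkn1c and Dlk1 of its group, the values were -1.11, -1.16, -0.71, -0.43 and -1.30 in the same order. The part of the neural, muscle and endothelial markers that differed between E9 AoD and the other groups was not tested.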

How the results depend on the processing

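The 70 log2 differences of the 10 genes were recomputed under 1890 combinations of gene, comparison and alternative. Of these, 1818 kept direction and call, 40 became called, 11 lost their call and 21 changed sign, none of them a difference that had passed. Most of the 40 became called with the fold threshold dropped, where every gene that passed is called by definition. A pass gained or lost without a change of call was counted as kept. With the fold threshold dropped, the genes called were those that passed: 5 and 8 for the stage comparisons in AoV and AoD, 8 and 6 for AoV against AoD at E9.5 and E10.5, 4 and 5 for AoV and AoD against UGR, and 5 for the difference of stage changes. With limma's treat test against a log2 change of 1, 1 gene (Cdkn1c) was called for stage in AoD, 0 for AoV against AoD at E9.5 and 0 for the difference of stage changes. Of all genes, treat called 535 to 1047 per comparison and a pseudocount of 1 RPM 735 to 1281, against 1404 to 2337. For stage in AoV 3 genes passed with no filter and 3 after quantile normalization. After quantile normalization 1 gene (Igf2r, 1.01) was called for AoV against AoD at E10.5, and 2 passed for E10 AoD against E10 UGR. H19 lost its call with this normalization for stage in AoD (0.713, limma adjusted p = 9.07e-05). It also lost its call for the difference of stage changes (-0.974, adjusted p = 0.000355). The cause of these shifts was not tested. With only the groups compared in the fit, Mest lost its pass for stage in AoD (adjusted p = 0.0709) and for AoV against AoD at E9.5 (0.0634), and Grb10 for stage in AoD (0.0611).

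The sign changed after quantile normalization for Mest in AoV with stage (0.0428), Ndn in AoD with stage (0.00702), Plagl1 in E10 AoV against E10 AoD (0.0349) and Igf2 in E10 AoV against E10 UGR (-0.0766). It also changed for Igf2r in E10 AoD against E10 UGR with TMM (0.0493) and median-of-ratios scaling (0.0414). No scaling moved the median of all genes by more than 0.0845.

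On leaving out each library in turn, 3 to 7 genes passed for stage in AoV, 0 to 1 were called for AoV against AoD at E10.5, 1 to 3 at E9.5, and 0 to 1 against E10 UGR. Of all tested genes, 7126 to 8719 passed for stage in AoV. In the other 3 comparisons 1826 to 1894, 2024 to 2340 and 1360 to 1420 of all tested genes were called, in the same order. The ranges that follow are those of single members of the 10. For stage in AoV the differences ran from -0.0346 to 0.0272 (Igf2), from -0.0355 to 0.126 (Igf2r) and from -0.0769 to 0.00886 (Mest). They ran from -0.0527 to 0.0808 for Plagl1 in E10 AoV against E10 AoD, from -0.112 to 0.0495 for Igf2r in E10 AoD against E10 UGR, and from -0.0129 to 0.0763 for Grb10 in the difference of stage changes. The log2 ratio of H19 to Igf2 changed by -0.237 to -0.16 with stage and by -0.224 to -0.14 with position, and that of Igf2 to Igf2r by -0.861 to -0.586 with position. With labels permuted within stage, the position difference of H19 to Igf2 (-0.185) passed at an adjusted p of 0.01 in the exact test.

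The replicate numbers were not taken as pairs, because the labels do not tie a number to an experiment and not every same-numbered pair correlated over 0.1. Same-numbered libraries of different groups correlated between -0.138 and 0.452 (median 0.0638), with 11 of 30 over 0.1. Other-numbered pairs correlated between -0.345 and 0.187 (median -0.0337), with 7 of 60 over 0.1. Same-numbered libraries were thus the more alike on the median, and a shared experiment behind a number remains possible. 11 of the 15 libraries lay closest to their own number. With a replicate block, 5 to 9 genes passed per comparison, the counts of called genes were the same, and 18 of 40 neighboring groups differed. The genes gained were Igf2r for stage in AoD (adjusted p = 0.0344), Peg3 for AoV against AoD at E10.5 (0.000907), Cdkn1c for AoV against AoD at E9.5 (0.00175) and against UGR (0.00405), and Plagl1 for AoD against UGR (0.0418), and none was lost. The ratio differences of -0.204 (H19 to Igf2, stage) and -0.73 (Igf2 to Igf2r, position) then had an exact p of 0.25 in a sign-flip test on 1 difference per number, which can give no smaller p. With labels permuted within each number instead (216 regroupings, an alternative chosen after seeing the data), both had an adjusted exact p of 0.0556. Depth did not limit these genes, since the lowest value was 131 RPM.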
